A study of Danio rerio with 6 samples.

Results

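The kynurenine pathway turns the amino acid tryptophan into quinolinate and from there into the coenzyme NAD, and in vertebrates the liver is its best known site. Tryptophan dioxygenase (tdo2a and tdo2b in zebrafish) or indoleamine dioxygenase (ido1) opens the tryptophan ring, the formamidase afmid releases kynurenine, and the monooxygenase kmo, the kynureninase kynu and the hydroxyanthranilate dioxygenase haao carry it to quinolinate. The enzyme qprt then makes a nicotinate nucleotide, and the NAD synthetase nadsyn1 finishes NAD. In humans, inherited loss of HAAO, KYNU or NADSYN1 causes a congenital NAD deficiency with vertebral, heart, kidney and limb malformations, a pattern that overlaps VACTERL association. These 9 genes were chosen for that pathway, with earlier results of these data known. A gene was taken where its symbol in the deposited table equalled the listed one. The table held 8 of the 9 listed genes among 25432 genes, and all 8 were among the 20012 genes tested. No row carried the symbol qprt, and it was not analysed here.

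Poly(A) RNA of whole zebrafish embryos, 72 hours after fertilization, was sequenced in 6 libraries. In 3 of them (wbp11-MO) the embryos had received a wbp11 morpholino and in the other 3 (control-MO) a control morpholino, with 50 embryos pooled per library. Morpholinos are antisense compounds that keep a target RNA from being translated or spliced, and the labels used here do not say which kind this was, nor do they give the strain. The series title presents loss of wbp11, a gene for a nuclear protein of the splicing machinery, as a model of VACTERL association.

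Library totals ran from 11219706 to 13669995 counts. The wbp11 record on chromosome 3 had 312, 318 and 313 counts in the wbp11-MO libraries and 202, 145 and 241 in the control-MO libraries. The record on the scaffold KN150013.1 had 141, 114 and 130 counts in wbp11-MO and 123, 82 and 115 in control-MO, and reads may be shared between the records. The chromosome 3 record was called higher in wbp11-MO, with a log2 fold change of 0.72 ± 0.12 (SE; adjusted p = 4.7e-06, edgeR). The scaffold record was not called (log2 fold change 0.30 ± 0.16, SE; adjusted p = 0.10, edgeR). Neither record was lower in wbp11-MO, so the transcript does not check the labels, and the groups are named as labelled. In whole embryos, fewer cells of a type and less RNA per cell cannot be told apart.

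Genes of the first and middle steps of the pathway fell, while its last enzyme gene and 2 genes with few counts showed no detectable change. Transcripts of tdo2a, ido1, kmo, kynu and haao were lower in the wbp11-MO libraries, by 31.2, 20.4, 8.61, 4.44 and 3.32-fold in mean CPM (counts scaled to library size with TMM factors). Those of tdo2b, afmid and nadsyn1 did not pass the test. By edgeR's quasi-likelihood test (Benjamini-Hochberg adjusted p under 0.05 over all genes tested), 5 of the 8 genes were called lower and 0 higher, where 31.2% of all tested genes were called lower and 30.5% higher. The count of 0 was the same at an unadjusted p under 0.05, with DESeq2 and with limma-voom. All 5 also fell by at least 1 on the log2 scale, and 14.3% of all tested genes were called lower with a fall of that size. In each of the 5 every wbp11-MO library lay below every control-MO library, which held for 33.1% of tested genes. The median log2 fold change over the 8 genes was -1.94, and over all tested genes it was 0.0013. The pathway genes were chosen with earlier results of these data known, so the shares over all tested genes are a background and no test. The genes ido1 and tdo2a passed the filter on low counts through the control-MO libraries (0 and 1 of 3 wbp11-MO libraries reached its level), so a gene of this kind could enter only by being higher there.

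**Figure D1:**
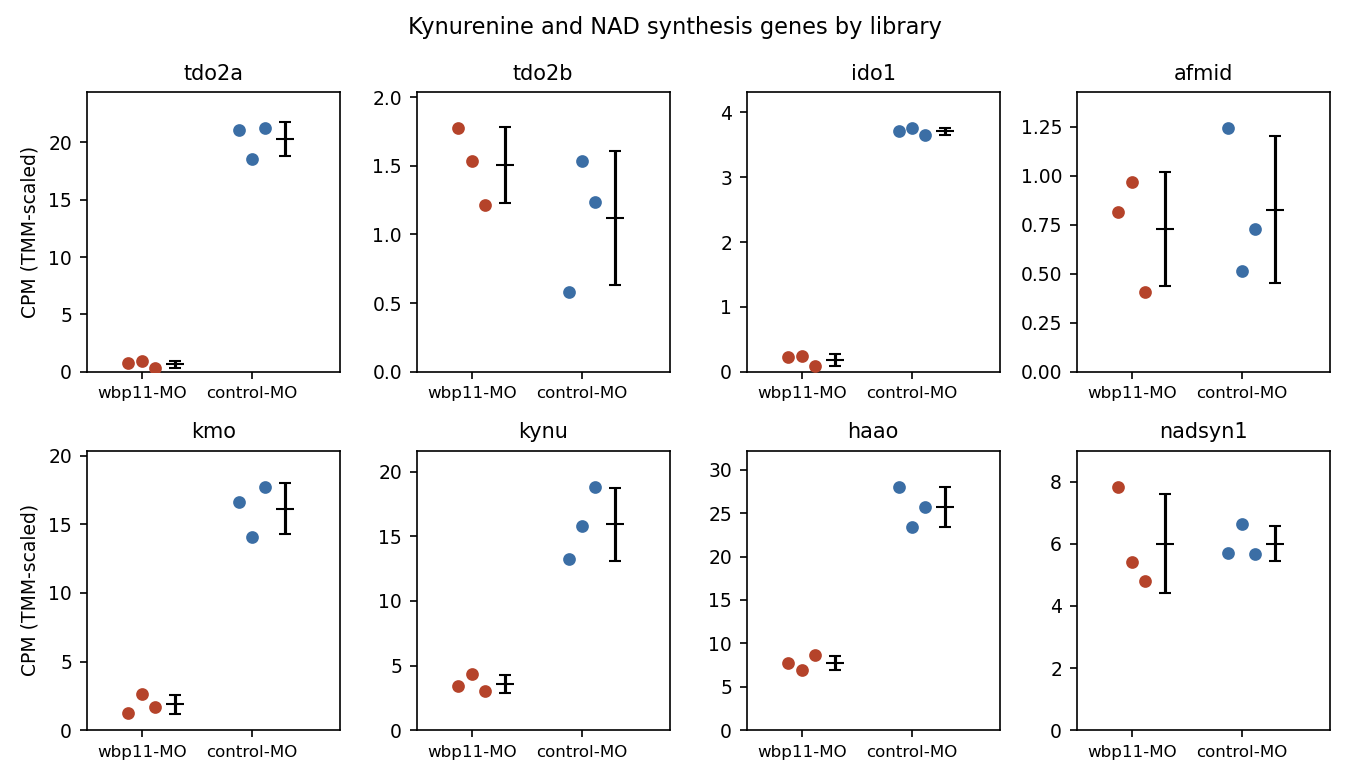
TMM-scaled CPM of the 8 genes, with 1 point per library (wbp11-MO at left, control-MO at right) and a bar for the mean ± SD (n = 3 each); each panel has its own axis from 0. The groups are apart for tdo2a, ido1, kmo, kynu and haao and overlap for tdo2b, afmid and nadsyn1.

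The first step held both the largest fall of the 8 genes and a gene with no detectable change. The gene tdo2a (ENSDARG00000071429, chromosome 14, 36738063 to 36750593, + strand, GRCz11) had 0.739, 0.888 and 0.325 CPM in the wbp11-MO libraries, against 21.1, 18.6 and 21.2 CPM in the control-MO libraries. The highest wbp11-MO library stood far below the lowest control-MO library, and the counts behind these values were 10, 11 and 4 in wbp11-MO and 289, 218 and 291 in control-MO. Its log2 fold change was -4.94 ± 0.23 (SE; adjusted p = 5.1e-18, edgeR), and 91 of the tested genes (0.455%) had a lower one.

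Its paralog tdo2b (ENSDARG00000023176, chromosome 11, 34084532 to 34097437, - strand) encodes the same kind of enzyme. It had 1.77, 1.53 and 1.22 CPM in the wbp11-MO libraries, against 0.584, 1.53 and 1.24 CPM in the control-MO libraries. The groups overlapped, and the low control-MO value came from replicate 1 with 8 counts. This was a log2 fold change of 0.45 ± 0.42 (SE; adjusted p = 0.36, edgeR), with a 95% interval from -0.40 to 1.30, which spans levels between 0.756 and 2.46 times that of control-MO. That interval does not meet the one of tdo2a, which ran from -5.41 to -4.47.

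The indoleamine dioxygenase gene ido1 (ENSDARG00000033594, chromosome 8, 50463227 to 50482781, - strand), whose mammalian counterpart is induced by interferon, followed tdo2a. It had 3, 3 and 1 counts in the wbp11-MO libraries and 51, 44 and 50 in the control-MO libraries, which gave 0.222, 0.242 and 0.0811 CPM in wbp11-MO and 3.72, 3.75 and 3.65 CPM in control-MO. Control-MO libraries lay close together, and no wbp11-MO library came near them. This was a log2 fold change of -4.27 ± 0.47 (SE; adjusted p = 2.6e-09, edgeR), with a wide interval from -5.23 to -3.31 that follows from the 7 counts in wbp11-MO.

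Levels of different genes can be set side by side only per length, for which the deposited FPKM values (fragments scaled to gene length and library total) were used. Summed over tdo2a, tdo2b and ido1, the first step stood at 1.22 ± 0.33 FPKM in wbp11-MO and 12.3 ± 0.28 FPKM in control-MO (SD, n = 3 each). In the wbp11-MO libraries tdo2b made up 67.4%, 60.5% and 77.4% of that sum, against 2.69%, 7.40% and 5.55% in the control-MO libraries. The main transcript thus was tdo2b in every wbp11-MO library and tdo2a in every control-MO library, while the libraries of both groups overlapped in tdo2b itself.

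Counted as reads, tdo2a had 29.4% (95% exact binomial interval 15.1 to 47.5), 36.7% (19.9 to 56.1) and 21.1% (6.05 to 45.6) of the tdo2 counts in the wbp11-MO libraries. In the control-MO libraries it had 97.3% (94.8 to 98.8), 92.4% (88.2 to 95.4) and 94.5% (91.3 to 96.8), with intervals that cover counting error only. The log2 ratio of tdo2a to tdo2b in FPKM was -1.70 ± 0.56 in wbp11-MO and 3.91 ± 0.81 in control-MO (SD, n = 3 each). The difference was -5.61, with p = 0.10 in a two-sided exact permutation test. That is the smallest p that 3 against 3 libraries allow, so the test could not pass at any size of difference. The ratio mainly carries the fall of tdo2a, whose groups did not overlap, while those of tdo2b did. The permutation p therefore adds nothing to that fall and does not show a switch between the paralogs.

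**Figure D2:**
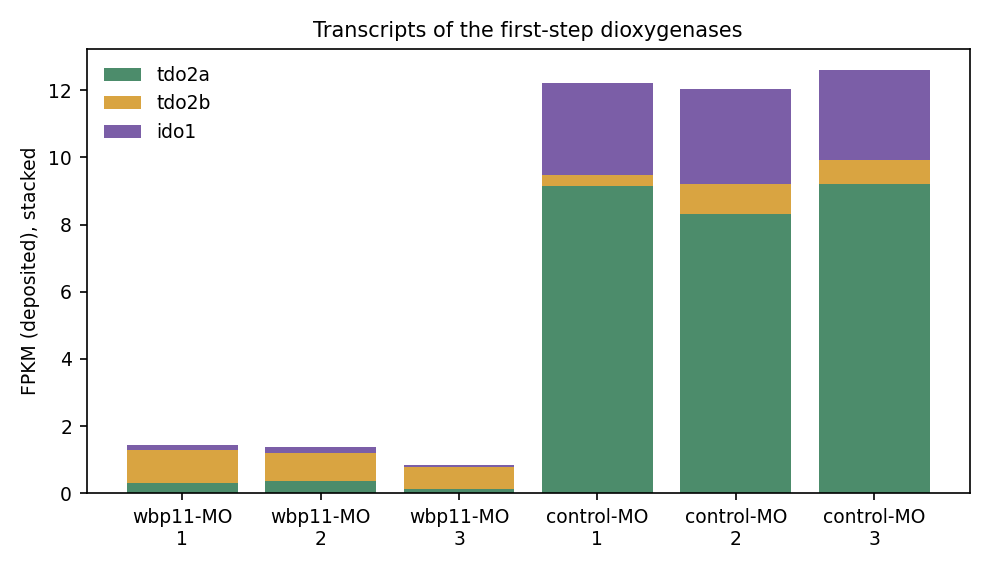
Deposited FPKM of tdo2a, tdo2b and ido1, stacked for each library, wbp11-MO libraries first. The bars reach 0.843 to 1.45 FPKM in wbp11-MO and 12.05 to 12.6 FPKM in control-MO, and the tdo2b segment is 0.652 to 0.975 FPKM tall in wbp11-MO and 0.329 to 0.891 FPKM in control-MO.

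The next gene, afmid (ENSDARG00000099106, chromosome 11, 45139300 to 45153006, - strand), was the least abundant of the 8 in control-MO. It had 11, 12 and 5 counts in the wbp11-MO libraries and 17, 6 and 10 in the control-MO libraries. The groups overlapped, and the log2 fold change was -0.19 ± 0.51 (SE; adjusted p = 0.76, edgeR) with an interval from -1.24 to 0.85. A fall as large as that of haao lies outside this interval, while a 2-fold change in the downward direction lies within it. The gene cant1b overlaps afmid over 9444 bases on the same strand, and how reads in such overlaps were counted is not given in the sources used here.

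The monooxygenase gene kmo (ENSDARG00000009160, chromosome 13, 42272515 to 42306348, - strand) makes hydroxykynurenine, the step that commits kynurenine to the NAD branch. It had 1.26, 2.66 and 1.70 CPM in the wbp11-MO libraries, against 16.6, 14.1 and 17.7 CPM in the control-MO libraries. The wbp11-MO libraries differed among themselves by more than 2-fold, on 17, 33 and 21 counts, and all lay far below the control-MO libraries. This was a log2 fold change of -3.11 ± 0.21 (SE; adjusted p = 5.7e-14, edgeR).

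The kynureninase gene kynu (ENSDARG00000099546, chromosome 6, 612330 to 627846, + strand), one of the human disease genes, had 3.40, 4.36 and 3.00 CPM in the wbp11-MO libraries and 13.2, 15.8 and 18.8 CPM in the control-MO libraries. No library of one group reached the other, and wbp11-MO kept 22.5% of the control-MO mean. This was a log2 fold change of -2.15 ± 0.18 (SE; adjusted p = 1.2e-11, edgeR).

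The dioxygenase gene haao (ENSDARG00000076487, chromosome 13, 8954667 to 8982782, + strand), also a human disease gene, makes the direct precursor of quinolinate. It had 7.68, 6.95 and 8.60 CPM in the wbp11-MO libraries, against 28.0, 23.4 and 25.7 CPM in the control-MO libraries. Its groups were apart as well, with 30.1% of the control-MO mean left in wbp11-MO. This was a log2 fold change of -1.73 ± 0.13 (SE; adjusted p = 4.6e-13, edgeR). This was the smallest of the 5 falls and the best determined one, since haao had the most counts, 296 over the wbp11-MO libraries and 1011 over the control-MO libraries.

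The synthetase gene nadsyn1 (ENSDARG00000101378, chromosome 2, 28672152 to 28692928, + strand) acts where the kynurenine route and the nicotinic acid route have joined. It had 7.83, 5.41 and 4.79 CPM in the wbp11-MO libraries, against 5.69, 6.65 and 5.69 CPM in the control-MO libraries. The wbp11-MO values surrounded those of the controls, and both groups averaged 6.01 CPM, with an SD of 1.61 in wbp11-MO and 0.556 in control-MO (n = 3 each). This was a log2 fold change of 0.0093 ± 0.21 (SE; adjusted p = 0.97, edgeR) and its interval, from -0.42 to 0.43, holds levels between 0.749 and 1.35 times that of control-MO. The sign of so small a value depends on the setting, and wbp11-MO replicate 1 carried the high value: without it the log2 fold change was -0.24 (edgeR adjusted p = 0.38, the lowest of those over the alternatives). The gene dhcr7 overlaps the span of nadsyn1 over 10325 bases on the opposite strand. Without a stated strand setting, it is not known how reads in that stretch were assigned.

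**Figure D3:**
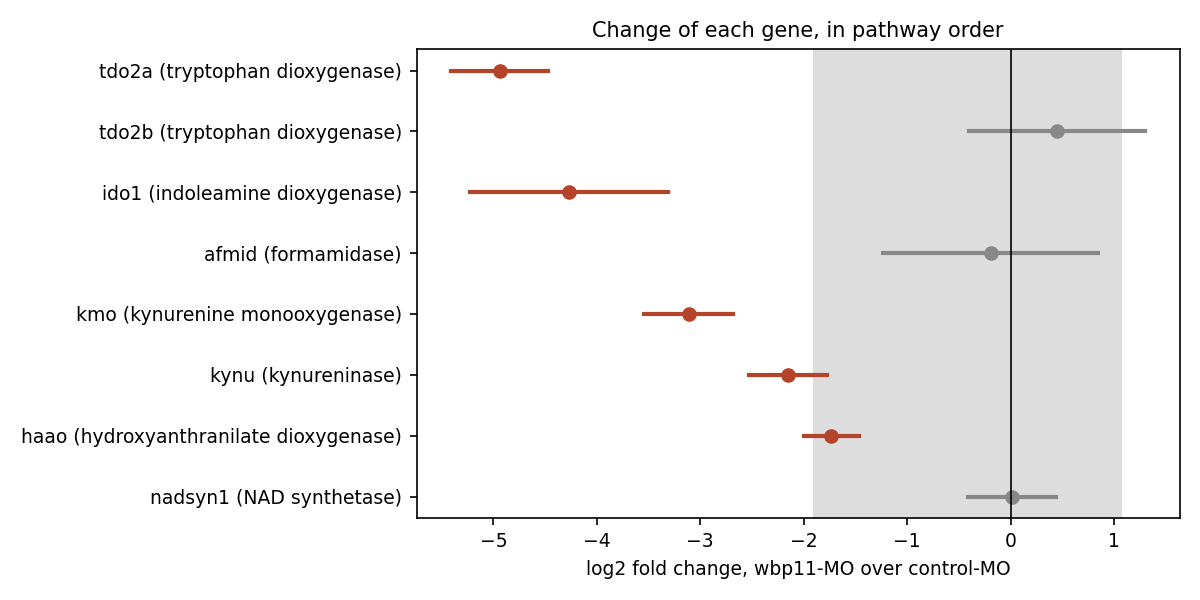
Log2 fold change (wbp11-MO over control-MO) with its 95% interval for each gene in pathway order from top to bottom; red marks genes past the threshold, gray those that are not, and the shaded band spans the 5th to 95th percentile of all tested genes (-1.90 to 1.07). The intervals of tdo2a, ido1 and kmo lie wholly to the left of the band, and those of afmid and nadsyn1 include 0, as does that of tdo2b.

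Among the called genes, the fitted falls were largest for tdo2a and ido1, which serve the same step, followed by kmo, kynu and haao. The uncalled first-step gene tdo2b (0.45) and afmid (-0.19), which acts next, did not follow this order. The interval of tdo2a overlapped that of ido1 but not that of kmo, whose interval ran from -3.54 to -2.68. The interval of ido1, from -5.23 to -3.31, overlapped that of kmo. That of kmo did not overlap that of kynu, from -2.52 to -1.77, while the interval of kynu overlapped that of haao, from -1.99 to -1.47. Differences in fold change between these genes were not tested, and the overlap of intervals is no such test.

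The order of levels per length changed between the groups. These levels depend on the deposited gene length, 6609 bases for kynu and from 1379 to 2541 bases for the other genes. In control-MO, kynu and kmo had similar means of 15.9 and 16.1 CPM but not similar FPKM. In wbp11-MO, haao was the most abundant at 3.98 ± 0.42 FPKM, followed by nadsyn1 at 3.26 ± 0.92, kmo at 0.858 ± 0.32, tdo2b at 0.817 ± 0.16, kynu at 0.529 ± 0.10, afmid at 0.280 ± 0.11, tdo2a at 0.272 ± 0.12 and ido1 at 0.129 ± 0.06 (SD, n = 3). The libraries of haao overlapped those of nadsyn1, those of kmo overlapped those of tdo2b and of kynu, and afmid, tdo2a and ido1 overlapped in turn. In control-MO the order was haao at 13.9 ± 1.03 FPKM, tdo2a at 8.89 ± 0.50, kmo at 7.78 ± 0.78, nadsyn1 at 3.42 ± 0.38, ido1 at 2.75 ± 0.08, kynu at 2.47 ± 0.43, tdo2b at 0.640 ± 0.29 and afmid at 0.332 ± 0.15 (SD, n = 3). There tdo2a overlapped kmo, ido1 overlapped kynu, and tdo2b overlapped afmid. By mean FPKM, haao led in both groups, although in wbp11-MO replicate 1 nadsyn1 (4.31 FPKM) stood above haao (4.01 FPKM). By mean FPKM, tdo2a stood second in control-MO, where it overlapped kmo. It stood next to last in wbp11-MO, where it overlapped afmid and ido1.

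Of 8 genes in side branches of the pathway, 6 fell and 1 rose, with a median log2 fold change of -0.43. For this and the lists that follow, the shares over all tested genes were 31.2% lower and 30.5% higher. The decarboxylase gene acmsd, which draws the haao product away from NAD, fell to 1.96 ± 0.33 CPM in wbp11-MO, against 7.05 CPM in control-MO, which is -1.84 ± 0.24 on the log2 scale (SE, edgeR adjusted p = 7.7e-08). The next enzyme of that drain, aldh8a1, fell by 0.95 (log2), and the aminotransferase gene kyat1, which makes kynurenic acid, fell by 0.70. The glutaryl-CoA dehydrogenase gene gcdhb had a log2 fold change of 0.25, and this call (edgeR adjusted p = 0.031) was lost under 8 of 14 alternatives, with adjusted p up to 0.14. So both haao, whose product is the precursor of quinolinate, and acmsd, which removes that product, were lower in wbp11-MO.

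Other routes to NAD start from salvaged nicotinamide or from nicotinic acid rather than from tryptophan. Of 12 gene records for salvage, the nicotinic acid route and NADP synthesis, 4 fell and 2 rose, with a median log2 fold change of -0.06, and 2 of the records were both named nadka. Their share of falls lay near that of all tested genes, so the counts show nothing about this list. The neuronal NAD-forming enzyme gene nmnat2 fell to 23.2 ± 1.39 CPM in wbp11-MO, against 43.5 CPM in control-MO (log2 fold change -0.91 ± 0.09, SE, edgeR adjusted p = 2.8e-10). The salvage gene nampta fell by 0.42 (log2) and the mitochondrial transhydrogenase gene nnt by 0.18. The NAD kinase genes nadk2 and nadkb rose by 0.62 and 0.32, and nadkb no longer passed when control-MO replicate 1 was left out (edgeR adjusted p = 0.056, the highest over the alternatives).

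Of 14 gene records for enzymes that use up NAD, 4 rose and 3 fell, with a median log2 fold change of 0.05. These shares did not exceed those of all tested genes. The ADP-ribosyltransferase genes parp3, parp1 and parp2, which act in DNA repair, rose by 0.80, 0.44 and 0.32 on the log2 scale. The axonal NAD hydrolase gene sarm1 fell by 0.41 and tnksb by 0.20. The mitochondrial deacylase gene sirt3 fell by 0.46, a call lost under 6 of 14 alternatives (edgeR adjusted p up to 0.23).

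Among genes for tryptophan transport, 2 relatives of an epithelial amino acid carrier had the largest falls. Of 10 genes for tryptophan uptake and charging, 6 fell and 1 rose, with a median log2 fold change of -0.31. The neutral amino acid transporter gene slc6a19b, whose mammalian counterpart works in intestine and kidney, fell to 0.418 ± 0.08 CPM in wbp11-MO, against 8.02 CPM in control-MO (log2 fold change -4.23 ± 0.31, SE, edgeR adjusted p = 4.6e-13). With 16 counts in wbp11-MO and 313 in control-MO, slc6a19b passed the filter on low counts only through the control-MO libraries. Its relative slc6a19a.1 had a log2 fold change of -1.60 ± 0.30 (SE), and the aromatic amino acid transporter gene slc16a10 fell by 0.88 (log2). The tRNA synthetase gene wars had a log2 fold change of 0.59, a call lost without wbp11-MO replicate 3 (edgeR adjusted p = 0.061, the highest over the alternatives).

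Tryptophan is also the source of serotonin and melatonin. Of 8 genes for serotonin and melatonin synthesis, 4 fell and 1 rose, with a median of -0.69. The decarboxylase gene ddc fell by 1.65, the melatonin-forming methyltransferase gene asmt by 1.81 and the hydroxylase gene tph1a by 1.36. The value of asmt rests on 27 counts in wbp11-MO and 99 in control-MO and was -2.42 without wbp11-MO replicate 3, while tph1b had a log2 fold change of 0.59, a call lost under 8 of 14 alternatives (edgeR adjusted p up to 0.16). Of 10 tested genes of the aryl hydrocarbon receptor, which binds kynurenine, and its targets, 6 fell and 2 rose, with a median of -0.30. The receptor genes ahr1b and ahr2 fell by 1.28 and 0.37 and arnt2 by 0.68. Also called lower were ahrra, cyp1a and cyp1c1, with log2 fold changes of -1.05, -0.26 and -0.35, so the targets went in both directions. The list genes ahr1a and ahrrb were not tested. Called higher were arnt and cyp1b1, which rose by 0.38 and 0.54. Each of these rises lost its call under 1 of 14 alternatives (edgeR adjusted p up to 0.059 for arnt and 0.087 for cyp1b1). Of 6 genes that supply vitamin B6, the cofactor of kynureninase, and FAD, the cofactor of the monooxygenase, 3 fell and 0 rose, with a median of -0.25, and pnpo, which makes the active form of vitamin B6, fell by 0.72.

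**Figure D4:**
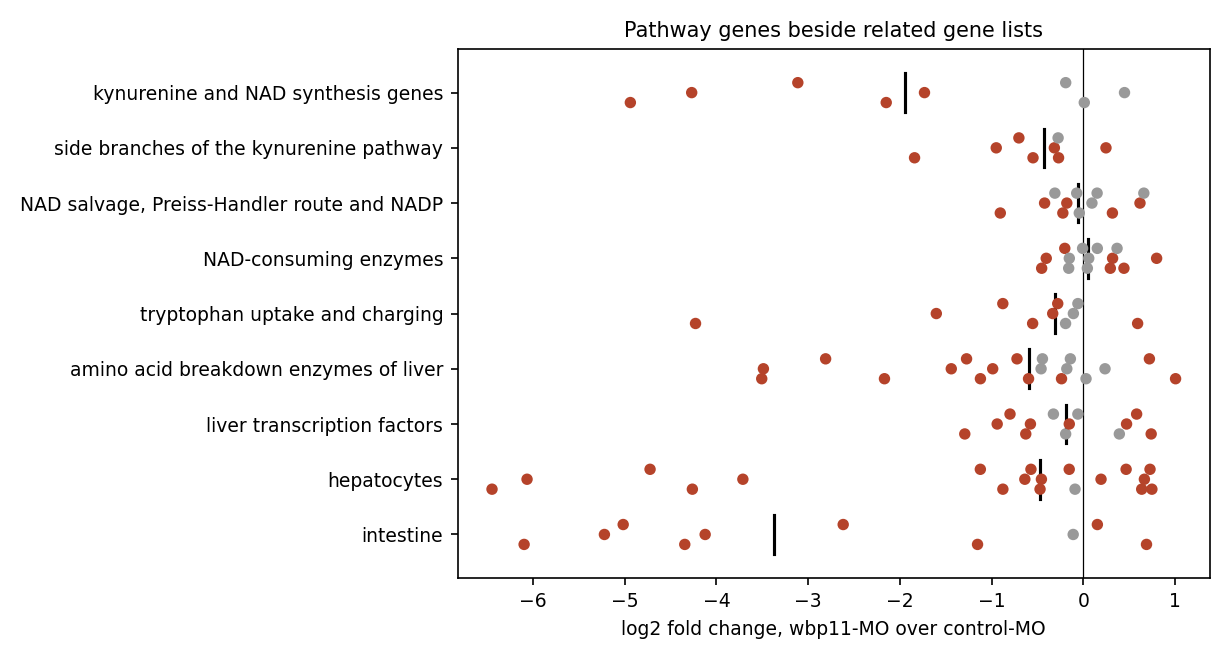
Log2 fold change (wbp11-MO over control-MO) of every tested gene in the pathway (top) and in 8 lists, with red for genes past the threshold, gray for the others and a black line at each median. The pathway genes reach from -4.94 to 0.45, the hepatocyte list spreads in both directions, and the salvage and NAD-consuming lists have medians of -0.06 and 0.05.

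Liver genes divided in the same libraries. Of 19 hepatocyte markers tested, 12 fell and 6 rose, with a median log2 fold change of -0.47. Their summed level ran from 4794 to 5428 CPM in wbp11-MO and from 6211 to 6752 CPM in control-MO, and no marker was at 0 in a group. RNA of whole embryos does not show in which tissue these markers were transcribed. The liver fatty acid binding gene fabp10a had 2, 2 and 8 counts in the wbp11-MO libraries, against 267, 226 and 358 in the control-MO libraries. It passed the filter on low counts only through the control-MO libraries. Its log2 fold change of -6.06 was lower than that of any pathway gene. Without wbp11-MO replicate 3 it was -7.05, and without wbp11-MO replicate 1 it was -5.71. The urate oxidase gene uox fell by 4.72 and the retinol carrier gene rbp4 by 1.12, while the complement gene c9 and the fibrinogen genes fgb and fgg rose by 0.75, 0.73 and 0.64. The part of liver cell number or state in the fall of the pathway was not tested. Per 1000 CPM of the summed markers, tdo2a stood at 0.128 ± 0.06 in wbp11-MO and 3.15 ± 0.24 in control-MO, and kynu at 0.699 ± 0.14 in wbp11-MO and 2.46 ± 0.33 in control-MO (SD, n = 3 each). On that scale the same 5 genes had groups that did not overlap. The summed markers in wbp11-MO libraries stood at 74.4% to 84.3% of their control-MO mean. So small a shift could not close the gaps of these genes, so the lack of overlap does not test liver content. The scale rests on a few abundant markers: apoa2 made up 39.2% of the sum in wbp11-MO and 34.9% in control-MO, and tfa 15.0% in wbp11-MO and 22.1% in control-MO. The 5 markers that fell by at least 3 on the log2 scale, fabp10a among them, made up 0.0446% of it in wbp11-MO and 1.17% in control-MO, so the scale does not follow the liver genes that fell most.

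Among other amino acid breakdown enzymes of liver, 11 of 19 fell and 2 rose, with a median log2 fold change of -0.60. The tyrosine breakdown genes hpda and hpdb fell by 3.51 and 2.17 in log2, and the glyoxylate aminotransferase gene agxta by 3.49. The proline dehydrogenase gene prodha and the urea cycle gene cps1 rose by 1.00 and 0.72. Of 13 liver transcription factor genes, 6 fell and 3 rose, with a median of -0.19. Here foxa3, cebpa and prox1a fell by 1.29, 0.80 and 0.63, and cebpb and onecut1 rose by 0.74 and 0.58.

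Marker genes of other tissues were counted in the same way, against 31.2% lower and 30.5% higher over all tested genes. Of 10 intestine markers, 7 fell and 2 rose, with a median log2 fold change of -3.37. The brush border gene vil1 fell to 3.38 ± 0.60 CPM in wbp11-MO, against 109.4 CPM in control-MO. The chitinase gene chia.2 fell by 5.22 on the log2 scale, on 28 counts in wbp11-MO and 1090 in control-MO. The fatty acid binding gene fabp1b.1 rose by 0.69. The summed level of the intestine markers ran from 2940 to 3429 CPM in wbp11-MO and from 2997 to 3354 CPM in control-MO. Most of it came from apoa1a, which had 2632 ± 206 CPM in wbp11-MO and 2369 CPM in control-MO. The sum thus does not follow the 7 markers that fell. RNA of whole embryos does not show in which tissue these markers were transcribed either. The rise of apoa1a (log2 fold change 0.15) lost its call under 3 of 14 alternatives (edgeR adjusted p up to 0.15). Of 12 pronephros markers, 5 fell and 3 rose, with summed levels from 375.7 to 401.8 CPM in wbp11-MO and from 448 to 449.6 CPM in control-MO. Of 9 macrophage and neutrophil markers, 4 fell and 1 rose, with summed levels from 54.5 to 60.2 CPM in wbp11-MO and from 81.7 to 82.9 CPM in control-MO. Of 12 pigment cell markers, 3 fell and 8 rose. Of 10 epidermis markers, 3 fell and 4 rose, which is near the shares over all tested genes. The part of these tissues in the pathway values was not tested.

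The profiles nearest to kynu and haao were sought among tested genes with a symbol that is not a placeholder (a clone or database identifier). Likeness was the Euclidean distance between log2 CPM deviations from each gene's own mean over the 6 libraries, with 0.5 added to each CPM. Over so few libraries it mostly reflects the group difference, so shared or different function cannot be read from it. Nearest to kynu were gng13a, krt15 and slc16a7 at distances of 0.254, 0.341 and 0.343, genes for a G protein subunit, a keratin and a monocarboxylate transporter. Nearest to haao were the phosphatidate phosphatase gene lpin1, the homeobox gene hoxb13a and the GABA transporter gene slc6a1b at 0.101, 0.143 and 0.153. The added 0.5 compresses genes with few counts: gng13a and slc16a7 had fitted log2 fold changes of -3.17 and -3.01, against -2.15 for kynu, and control-MO means of 2.18 and 2.82 CPM.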

How the data were processed

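Poly(A) RNA was sequenced from 3 wbp11-MO and 3 control-MO pools. FastQC 0.12.1, HTSeq 2.0.5 and the build GRCz11 are named in the submitters' processing notes. No aligner, annotation release or strand setting is given in the sources used here. The deposited table holds raw read counts, gene lengths and FPKM values, per the file headers. The deposited FPKM values equal count over length and column total (largest relative difference 5.13e-15).

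The test was edgeR 4.0.16 (R 4.3.3) with filterByExpr at a minimum count of 10, TMM scaling and the quasi-likelihood F-test with group as the only term, at adjusted p under 0.05 over all genes. Each SE is the log2 fold change over the root of its F value. Scripts were tested on simulated data. Libraries of a group differed by more than sampling noise (chi-square per degree of freedom 2.59 to 3.93).

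The pathway genes and lists were chosen with earlier results of these data known. From lists, the text names up to 3 called genes per direction with the smallest adjusted p. The last marker lists are given as counts, and for the aryl hydrocarbon receptor list all called genes are named. List symbols with no row (nmnat3, tnks2, cd38, bst1, amdhd1, sds, ass1, hpx) were not analysed here. Alternatives were RLE, upper-quartile or no scaling factors, looser and stricter filters, DESeq2 1.42.0, limma-voom 3.58.1, a replicate block and leaving out each library.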

Additional observations from a re-analysis of the deposited data

How the results depend on the processing

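The 5 genes lower in wbp11-MO (tdo2a, ido1, kmo, kynu and haao) kept their direction and their call under all 14 alternatives, and 0 pathway genes were called higher under any of them. Over the alternatives the log2 fold change ran from -5.21 to -4.64 for tdo2a, from -4.50 to -3.95 for ido1, from -3.45 to -2.89 for kmo, from -2.31 to -2.01 for kynu and from -1.82 to -1.66 for haao. The value of tdo2b ran from 0.13 to 0.72 and was called under none. The sign of nadsyn1, near 0, changed with upper-quartile factors (-0.025), without scaling factors (-0.062), with limma-voom (-0.0080) and with a replicate block (-0.011), and ran from -0.24 to 0.14 with a library left out. That of afmid ran from -0.44 to 0.22 with a library left out, and the strict filter (CPM of 1 in 3 libraries) removed it. With a replicate block 5977 genes were higher and 6119 lower, against 6105 and 6244 without it, and over all alternatives these counts ran from 5243 to 6249 and from 5832 to 6897. The replicate numbers showed no sign of pairing. Same-numbered libraries had correlations of deviations of -0.023, -0.047 and 0.012, and those with different numbers ran from -0.042 to 0.060. Whether same-numbered libraries were prepared together is not given in the labels. The block ended no call of a pathway gene. The alternatives were also run for named genes outside the pathway, except ahrra, cyp1a and cyp1c1, which was chosen after seeing the data. Depth limits ido1, tdo2b and afmid most, with 7, 58 and 28 counts over wbp11-MO and 145, 43 and 33 over control-MO. The value of tdo2a also rests on few counts in wbp11-MO, 25 against 798 over control-MO.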
